A study of Mus musculus with 6 samples.

Results

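Stx12 encodes a syntaxin of early and recycling endosomes. It was examined together with 9 further SNARE genes of the endosomal system (Stx6, Stx7, Stx8, Stx16, Vti1a, Vti1b, Vamp4, Vamp7 and Vamp8), which were chosen as its family and known partners. Stx12 itself was chosen because its counts differed between the study's groups, so its difference is described here without a test. The other genes were chosen by family, with earlier results of these data known. For 9 of the 10 genes the linear transcript table held isoforms that share exons with the gene, 58 isoforms of 155855 in all, and Vamp7 was not analysed here. These 9 stand among 54787 gene symbols, of which 20272 reached the mean of 0.5 FPKM (fragments per kilobase of transcript, scaled to library size) over the 6 libraries that was needed for testing; all 9 reached it.

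SNAREs are membrane-anchored proteins that pair across a vesicle and its target and pull the membranes together until they fuse. A fusing complex holds 1 helix each of the Qa, Qb, Qc and R types. In early endosome fusion the known set is Stx12 (Qa), Vti1a (Qb), Stx6 (Qc) and Vamp4 (R). Stx16 takes the Qa place with the same partners in transport from endosomes to the trans-Golgi network. In late endosomes Stx7 (Qa), Vti1b (Qb) and Stx8 (Qc) pair with Vamp8 or Vamp7 (R). In neurons these proteins serve receptor recycling, dendritic sorting and the supply of cargo to lysosomes.

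The samples were prefrontal cortex of male C57BL/6 mice dosed by oral gavage once per day for 6 months, starting at 5 weeks of age and sampled at 30 weeks. The control group (n = 3) received water (0 mg/kg), and the PS_high group (n = 3) received polystyrene nanoparticles (PS NPs) at 50 mg/kg. The labels name no transgene or other treatment in either group. Total RNA was depleted of ribosomal RNA and sequenced from stranded libraries, with 53344395 to 66004386 estimated linear counts and 15658 to 19957 back-splice reads a library. The labels do not tie each library to its own mouse, so p-values measure the spread between these samples, which may be partly technical. The tissue was sequenced in bulk, so fewer cells of a type and less RNA per cell cannot be told apart.

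The labelled tissue showed its defining markers, with the 9 cortical excitatory neuron markers summing to 301 to 407 FPKM in the control libraries and 341 to 393 in PS_high. Choroid plexus markers ranged from 5.65 to 237 FPKM in the control libraries and from 10.1 to 467 in PS_high, and blood markers from 152 to 383 and from 89.3 to 256. The leukocyte markers Cd3e, Ms4a1, S100a9 and Ly6c2 lay below the level needed for testing. The fifth marker of that list, S100a8, was at 0.961, 1.73 and 0.775 FPKM in the control libraries and 9.20, 0.314 and 3.36 in PS_high, and the list summed to 1.02 to 2.07 FPKM in the control libraries and to 10.3 FPKM in PS_high replicate 1. In no marker list did the summed level separate the groups, and no marker passed edgeR's quasi-likelihood test after Benjamini-Hochberg adjustment. That test called 0.0247% of all tested genes. Oligodendrocyte (0 of 6), oligodendrocyte precursor (0 of 3) and blood markers (0 of 5) had no log2 difference, PS_high over control, above 0. The tested choroid plexus (5 of 5) and meningeal fibroblast markers (5 of 5) all lay above 0. The other lists with more than 1 tested gene held both directions. The part of cell makeup in the values below was not tested.

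The promoters of Stx12 and of its early endosome partners Stx6 and Vamp4 are shown because Stx12 and Stx6 were the genes whose counts stood apart between the groups, while Vamp4 did not. The stretches are the RefSeq bases (GRCm38.p6) ahead of the first annotated start: chr4:132884510-132884708 on the minus strand for Stx12, chr1:155158453-155158627 on the plus strand for Stx6 and chr1:162570265-162570514 on the plus strand for Vamp4. Capitals mark exact matches on either strand to the searched motifs, which were the E-box core CACGTG, the CCAAT box (CCAAT), the GC box (GGGCGG), the TATA box (TATAAA), the cAMP response element (TGACGTCA) and the ETS core (CCGGAAG).
Stx12: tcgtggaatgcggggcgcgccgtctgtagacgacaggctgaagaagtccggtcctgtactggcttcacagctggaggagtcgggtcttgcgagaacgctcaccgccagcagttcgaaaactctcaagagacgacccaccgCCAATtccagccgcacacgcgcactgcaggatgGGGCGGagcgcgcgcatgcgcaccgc
Stx6: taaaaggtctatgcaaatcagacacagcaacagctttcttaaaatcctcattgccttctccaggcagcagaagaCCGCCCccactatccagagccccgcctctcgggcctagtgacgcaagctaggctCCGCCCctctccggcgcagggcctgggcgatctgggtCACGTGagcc
Vamp4: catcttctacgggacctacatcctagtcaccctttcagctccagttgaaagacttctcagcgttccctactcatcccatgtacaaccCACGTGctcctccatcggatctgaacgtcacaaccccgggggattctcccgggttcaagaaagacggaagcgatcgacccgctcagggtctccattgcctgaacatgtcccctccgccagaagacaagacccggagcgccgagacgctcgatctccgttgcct

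The printed Stx12 stretch is 199 bases long with 64.3% G and C and holds a CCAAT box and a GC box. The Stx6 stretch, 175 bases, holds an E-box core and GC boxes, and the Vamp4 stretch, 250 bases, an E-box core. Over the full RefSeq windows of 250 bases before to 50 after each start, the E-box core occurred for Stx6 and Vamp4 and in 7.15% of all 32851 windows. The CCAAT box occurred for Stx12, Stx6 and Stx7 and in 37.4% of all windows. The GC box occurred in 8 of the 12 windows of these genes and in 35.7% of all, and the ETS core for Vti1a and Vti1b and in 8.86% of all. TATAAA and TGACGTCA were found in 0 of the 12 windows, against 13.6% and 1.79% of all windows. These are matches of letters only.

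Stx12 (chr4:132853501-132884509, minus strand) had summed counts of 1883, 2268 and 3122 in the control libraries and of 6946, 5935 and 8146 in the PS_high libraries. Scaled to library size these were 38.3, 45.2 and 56.9 CPM against 149, 139 and 163 CPM. Every PS_high library lay above every control library, and the lowest PS_high value was far from the highest control value. The means were 46.8 ± 9.39 CPM and 150 ± 12.1 CPM (SD, n = 3 each), a 3.21-fold difference, or 1.68 on the log2 scale. On the length-scaled level, 9.80, 11.9 and 16.2 FPKM stood against 30.4, 31.4 and 36.4 FPKM, and the log2 difference of log2(FPKM + 0.1) was 1.40. When annotated isoforms alone were summed, the log2 difference of counts was 1.22, a smaller value because 1 assembled isoform was left out.

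**Figure D1:**
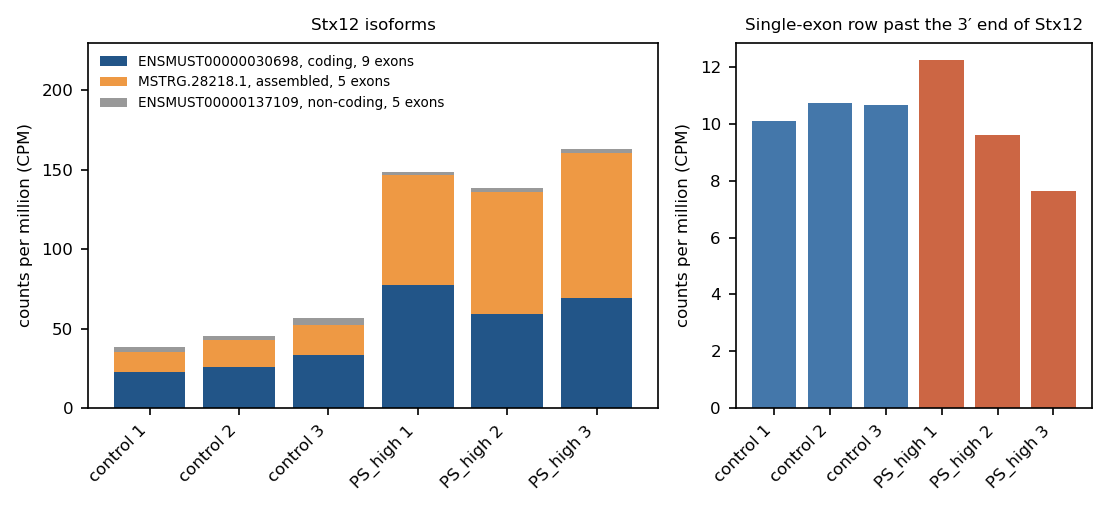
Stx12 isoforms per library, stacked (left), and the single-exon row past the 3′ end of the gene (right), both in CPM. The coding and the assembled isoform are both higher in the 3 PS_high bars, which reach 139 to 163 CPM in total against 38.3 to 56.9, while the row past the 3′ end lies between 7.63 and 12.2 CPM in all 6 libraries.

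Of the 3 Stx12 isoforms, 2 carried nearly all counts. The coding isoform ENSMUST00000030698 (9 exons, 2934 bases, the whole locus) had 1114, 1307 and 1832 counts in the control libraries and 3623, 2525 and 3455 in PS_high. The assembled isoform MSTRG.28218.1 (5 exons, 3502 bases, chr4:132853501-132863260) shares the 3′ end of the coding isoform but starts inside the gene, and had 636, 834 and 1049 against 3212, 3285 and 4570 counts. Both isoforms had groups apart, with log2 differences of 1.31 and 2.28. The share of the gene's counts in the assembled isoform was 33.8%, 36.8% and 33.6% in the control libraries and 46.2%, 55.3% and 56.1% in PS_high, and that of the coding isoform moved the opposite way, from 57.6% to 59.2% down to 42.4% to 52.2%. Reads that fall in exons common to both isoforms were divided between them by estimation in the deposited table, so the shares are less certain than the gene total.

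The estimated counts of the third isoform did not follow. ENSMUST00000137109, a non-coding processed transcript of 5 exons and 662 bases, had 133, 127 and 241 counts against 111, 125 and 121. It starts at the same base as the assembled isoform, chr4:132863260, and lies within its span. Reads in common exons were divided by estimation here too, and whether this division set its counts was not tested. A single-exon row just past the 3′ end (chr4:132851024-132853458), left out of the gene total by the rule, had 10.1, 10.7 and 10.7 CPM in the control libraries and 12.2, 9.62 and 7.63 CPM in PS_high, a log2 difference of -0.12 with groups that overlapped.

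The other Qa genes, Stx7 and Stx16, had groups that overlapped. Stx7, the late endosome syntaxin (chr10:24149302-24190222), had 92.0, 97.6 and 94.7 CPM in the control libraries and 99.8, 86.7 and 104 CPM in PS_high. Its groups overlapped, with a log2 difference of 0.03 and a 95% interval of -0.28 to 0.34 (adjusted p = 0.9997, edgeR's quasi-likelihood test with Benjamini-Hochberg adjustment). Stx16 (chr2:174076308-174099771), the syntaxin of endosome to Golgi transport, had 54.9, 93.4 and 101 CPM against 82.5, 54.6 and 110 CPM. Both groups held a library near 55 CPM and a library above 100, and the log2 difference of -0.01 had a wide interval of -0.74 to 0.71.

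Within the Qa class Stx12 took a larger part. Because Stx12 was chosen for its difference, the shares below restate that difference and are a description only. Its share of the summed FPKM of Stx12, Stx7 and Stx16 was 25.0%, 24.4% and 29.7% in the control libraries and 48.2%, 49.8% and 46.7% in PS_high. The sum of Stx7 and Stx16 alone was 34.9 ± 4.78 FPKM in the control libraries and 35.3 ± 5.48 in PS_high (SD, n = 3 each), with groups that overlapped. Over all 9 genes Stx12 made up 7.57% to 10.7% of the summed FPKM in the control libraries and 18.7% to 21.1% in PS_high.

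The Qb genes Vti1a and Vti1b also had overlapping groups. Vti1a (chr19:55316295-55627309), the Qb SNARE of early endosomes and the trans-Golgi network, had 81.1, 81.0 and 89.8 CPM against 96.1, 94.9 and 85.2 CPM. Its log2 difference was 0.13 with an interval of -0.17 to 0.44. Vti1b (chr12:79156017-79172667), its late endosome counterpart, had 39.7, 37.6 and 41.7 CPM against 37.6, 41.4 and 41.5 CPM, and its log2 difference of 0.02 had an interval of -0.30 to 0.34.

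Stx6 (chr1:155158715-155208256), the Qc SNARE shared by the early endosome and trans-Golgi complexes, had 33.7, 34.2 and 26.9 CPM in the control libraries and 38.9, 40.5 and 50.9 CPM in PS_high. It was the only 1 of the 8 genes other than Stx12 with groups apart in CPM, where 7.09% of all tested genes had groups apart and 3.34% had every PS_high library above the control libraries. The means of Stx6 were 31.6 ± 4.08 and 43.4 ± 6.49 CPM (SD, n = 3 each) and the log2 difference was 0.46 with an interval of 0.04 to 0.88. The difference did not pass edgeR's quasi-likelihood test (unadjusted p = 0.0355, adjusted p = 0.9997). In FPKM the groups overlapped, with 8.92, 8.59 and 7.06 against 8.79, 9.54 and 11.1.

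The readouts of the Stx6 locus did not move together. The coding isoform ENSMUST00000027743 had 410, 621 and 569 counts in the control libraries and 635, 987 and 1740 in PS_high, a log2 difference of 1.22 (SE 0.46, adjusted p = 0.99998, edgeR). The retained-intron isoform ENSMUST00000192091 had 950, 842 and 690 against 944, 538 and 589, and the 6 rows lying inside Stx6 introns summed to 53.05, 46.5 and 42.3 CPM against 49.5, 40.2 and 33.1 CPM. The higher gene total of Stx6 in PS_high therefore lay in the coding isoform, most of all in PS_high replicate 3, where it made up 68.4% of the gene's counts against 34.9% in replicate 1. Intronic rows of all genes held 19.0%, 18.0% and 15.0% of linear counts in the control libraries and 19.1%, 16.4% and 15.3% in PS_high. This share and the Stx6 intronic rows both fell from replicate 1 to replicate 3 in each group, and a link was not tested. The circular RNA mmu_circ_0000091, formed from 6 Stx6 exons (chr1:155173986-155197435), had 21, 15 and 21 back-splice reads against 18, 14 and 17, with a log2 difference of -0.10, an interval of -0.97 to 0.76 and an adjusted p of 0.996 from edgeR, which called 0.0916% of all 3275 tested circRNAs. The other 4 circRNAs of these genes had too few reads for testing, with 1 read in 1 library each.

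**Figure D2:**
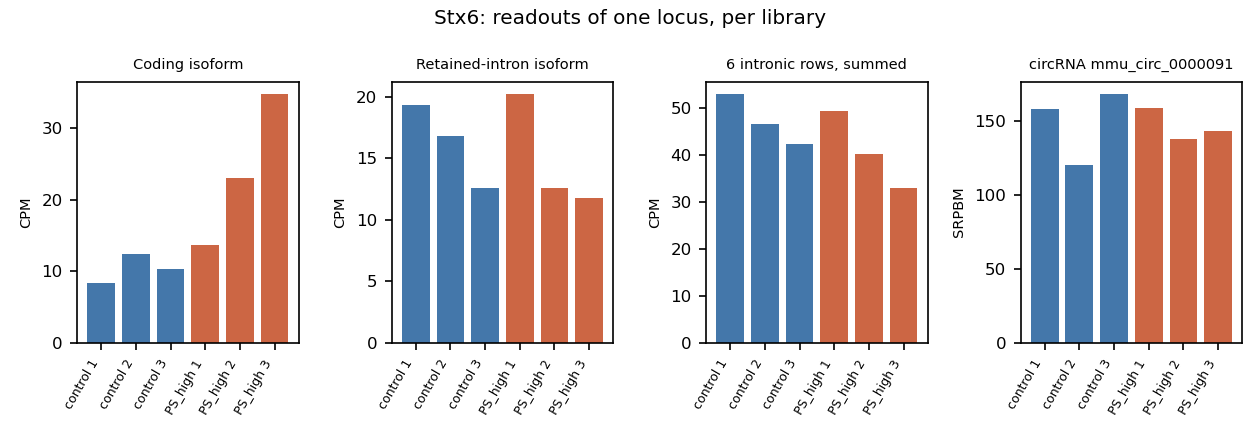
Readouts of Stx6 in each library: CPM of the coding isoform, of the retained-intron isoform and of the 6 intronic rows summed, and SRPBM (back-splice reads scaled to the library) of its circRNA. The coding isoform is higher in every PS_high library than in the control libraries, while the other panels overlap.

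Stx8, the Qc SNARE of late endosomes (chr11:67966193-68207148), was among the lowest of the family. It had 6.90, 8.22 and 8.24 CPM in the control libraries and 13.6, 14.2 and 6.59 CPM in PS_high. PS_high replicates 1 and 2 lay above all control libraries and replicate 3 below them, and the log2 difference of 0.56 had an interval of -0.17 to 1.28. The summed FPKM of Stx6 and Stx8 was 10.3, 10.2 and 9.36 against 12.2, 13.6 and 13.2, so that the Qc sum had groups apart although neither gene did on this scale. The Qb sum of Vti1a and Vti1b was 39.1 ± 2.09 FPKM against 39.7 ± 3.27, and the R sum of Vamp4 and Vamp8 was 43.0 ± 2.47 against 44.3 ± 5.07 (SD, n = 3 each), both with groups that overlapped.

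The R-SNAREs differed widely in level and neither separated the groups. Vamp4 (chr1:162570515-162599084), the R-SNARE of the trans-Golgi network and early endosomes, had 130, 118 and 126 CPM against 153, 110 and 113 CPM. Its log2 difference was 0.01 with an interval of -0.38 to 0.39. Vamp8 (chr6:72385223-72390703), which acts in late endosomes and regulated secretion, had 4.72, 3.61 and 5.85 CPM against 4.37, 8.20 and 7.87 CPM, and its log2 difference of 0.53 had an interval of -0.21 to 1.26. With 181 to 394 counts a library, Vamp8 had the least depth of the 9 genes.

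**Figure D3:**
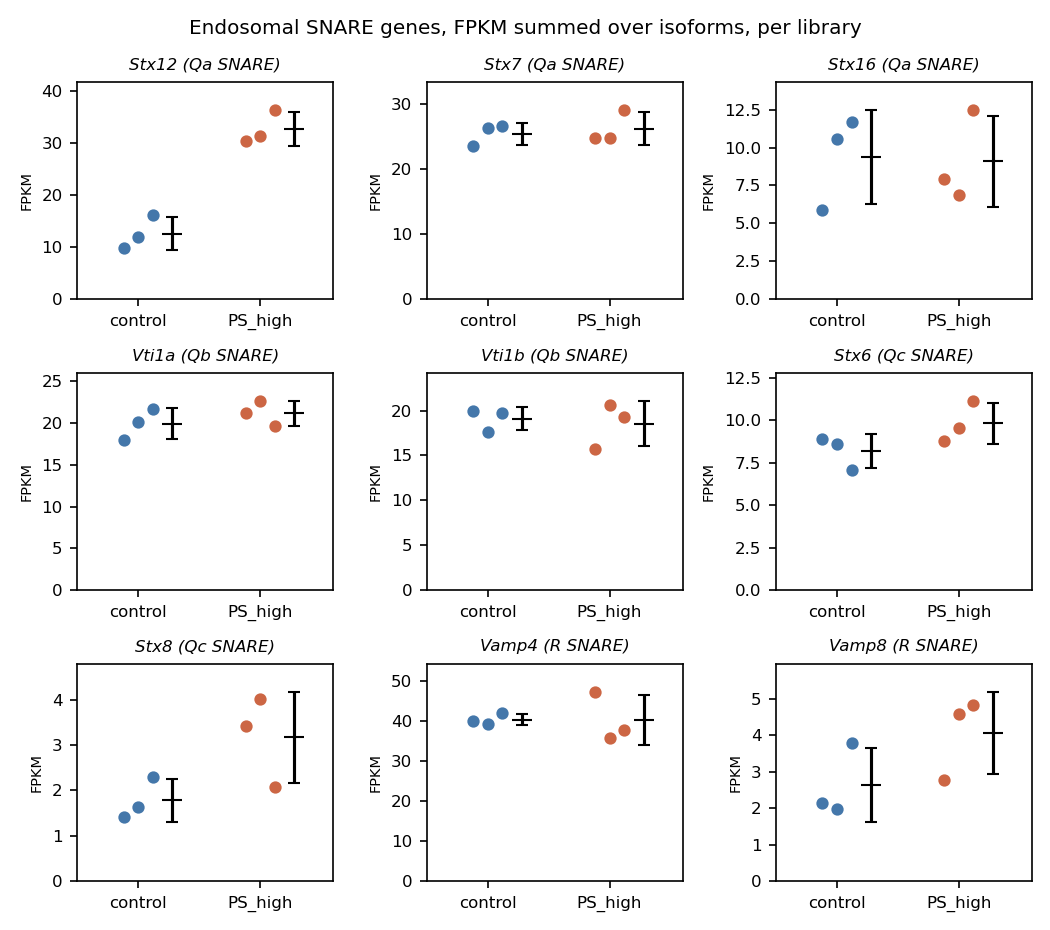
Summed FPKM of each of the 9 genes in the 3 control and 3 PS_high libraries (points), with the mean and SD beside them (bars); each vertical axis starts at 0 and has its own scale. Stx12 is the gene whose PS_high points, 30.4 to 36.4 FPKM, all lie above the control points, 9.80 to 16.2 FPKM.

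Compared per length, the order of mean control levels was Vamp4 (40.4 FPKM), Stx7 (25.5), Vti1a (19.95), Vti1b (19.1), Stx12 (12.6), Stx16 (9.39), Stx6 (8.19), Vamp8 (2.63) and Stx8 (1.78). Neighbours whose control libraries overlapped were Vti1a with Vti1b, Stx12 with Stx16, Stx16 with Stx6, and Vamp8 with Stx8. In PS_high Stx12 had the second highest mean, 32.8 ± 3.23 FPKM, between Vamp4 (40.3 ± 6.14) and Stx7 (26.2 ± 2.51; SD, n = 3 each). The sum of all 9 genes was 130, 138 and 151 FPKM in the control libraries and 162, 160 and 173 in PS_high. Without Stx12 it was 120, 126 and 135 against 132, 129 and 136, and the groups overlapped.

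None of the 8 genes other than Stx12 passed edgeR's quasi-likelihood test, whose adjusted p was 0.9997 for each. That count of 0 stands beside 1 of the 8, Stx6, at an unadjusted p under 0.05 (2.73% of all tested genes) and 0 of the 8 by DESeq2 or by limma. Over all 20272 genes edgeR called 0.0247% and DESeq2 0.232%, so the test made few calls anywhere, and the intervals give the range of sizes that the data allow. The intervals of Stx7, Vti1a, Vti1b and Vamp4 ended at 0.34 to 0.44 on the log2 scale, whereas those of Stx16, Stx8 and Vamp8 reached 0.71 to 1.28.

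**Figure D4:**
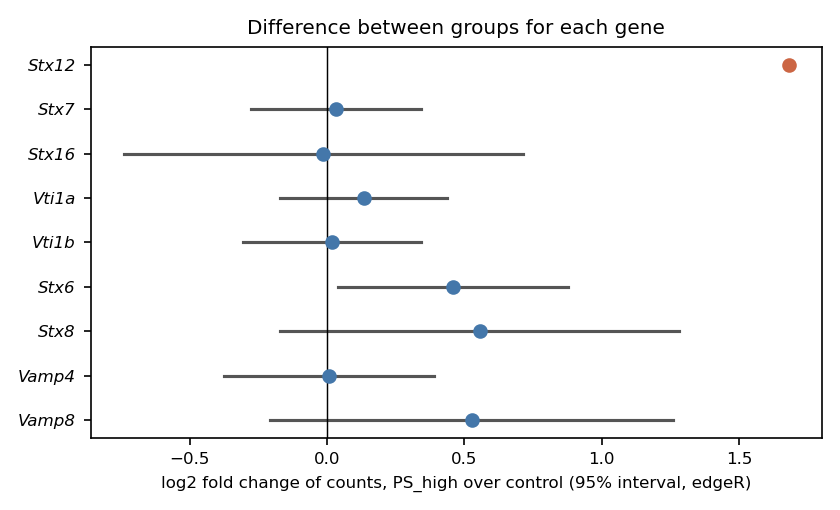
log2 fold change of gene counts, PS_high over control, with the 95% interval from edgeR for the 8 genes chosen by family. Stx12, chosen for this contrast, is the orange point at 1.68, drawn without an interval; of the 8 intervals, that of Stx6 lies just above 0 (0.04 to 0.88) and the rest include 0.

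The estimated isoform counts varied between libraries of a group. As for Stx12, reads in exons common to isoforms were divided by estimation, and whether the swings below lie in that division was not tested. For Stx16, whose counts lay almost wholly in assembled isoforms, MSTRG.23571.6 had 1518, 2695 and 3389 counts in the control libraries and 225, 1 and 3527 in PS_high. MSTRG.23571.10, which starts further inside the gene, had 2, 1631 and 1848 against 3412, 1164 and 1784, and MSTRG.23571.2 had 1150, 336 and 174 against 193, 1131 and 165. The estimated counts shifted between isoforms within both groups. The library at 2 counts of MSTRG.23571.10 was a control, and the library at 1 count of MSTRG.23571.6 a PS_high.

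The coding isoforms of Vamp4 did the same in 1 library. ENSMUST00000132158 was steady, at 62.9% to 68.5% of the gene's counts in all 6 libraries. ENSMUST00000135241 had 1922, 1756 and 2038 counts against 2392, 1372 and 0, and ENSMUST00000155003 had 10, 4 and 13 against 25, 4 and 1677. In PS_high replicate 3 the second isoform was thus listed at 0 and the third, which ends at the same base, held the counts.

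For Vti1b, control replicate 1 alone held a nonsense-mediated decay isoform, ENSMUST00000162789, at 787 counts or 40.4% of the gene, and the other 5 libraries had 0. The coding isoform ENSMUST00000055262 had 1131 counts there and 1850 and 2253 in the other control libraries, against 1733, 1652 and 2061 in PS_high. For Stx8, the short coding isoform ENSMUST00000108675 had 4, 16 and 8 counts in the control libraries and 201, 228 and 0 in PS_high, and ENSMUST00000021285, over the whole locus, had 253, 344 and 242 against 358, 334 and 199. A further coding isoform, ENSMUST00000021286, had 82, 52 and 202 against 73, 44 and 105. The 2 PS_high libraries with more Stx8 were thus those with the short isoform.

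**Figure D5:**
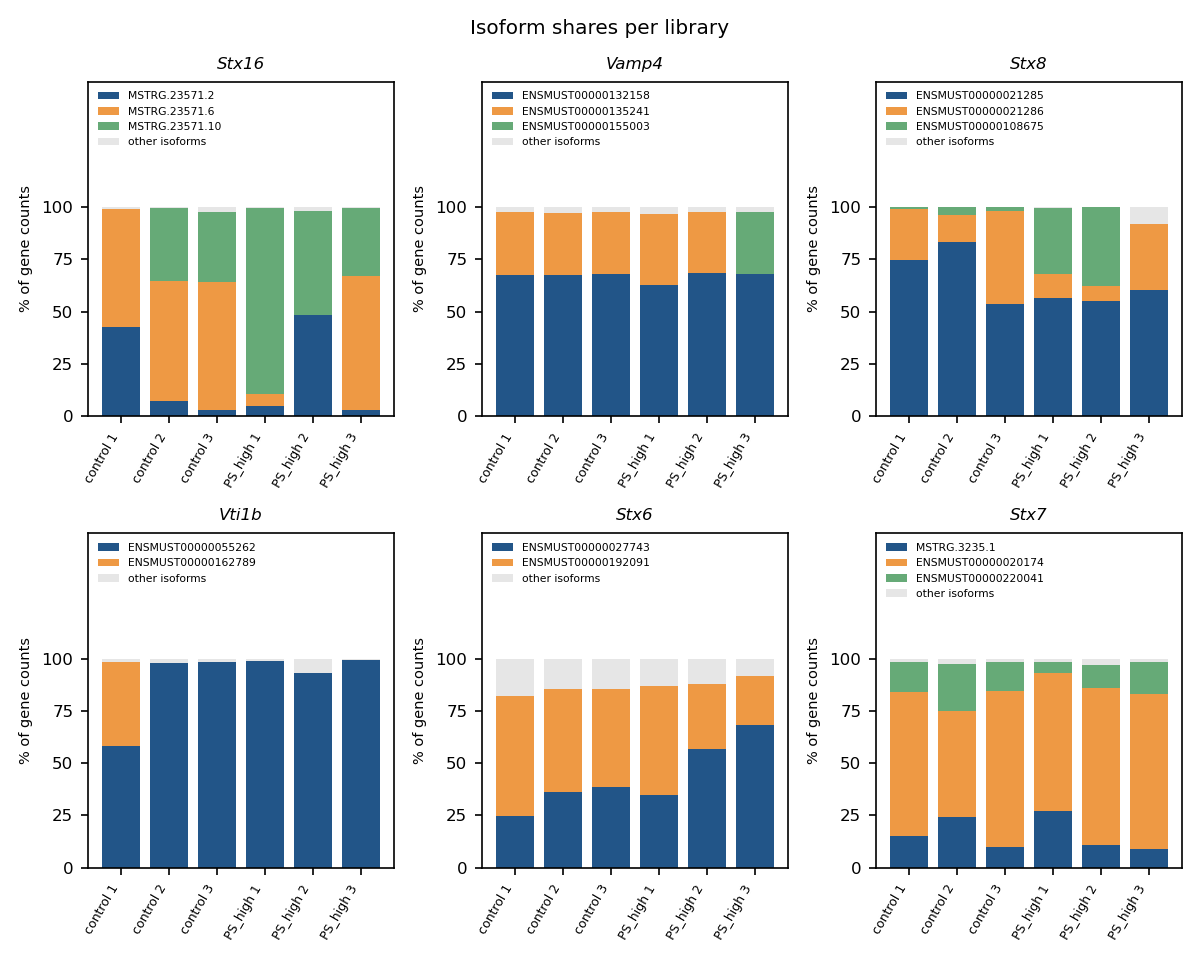
Share of each named isoform in the gene's estimated counts (%), per library, for 6 genes; grey is the sum of the remaining isoforms. Stx16, Vamp4, Stx8 and Vti1b each have at least 1 library in which an isoform that others of its group use is close to 0 or the reverse.

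No named isoform of Stx7, Vti1a or Vamp8 swung in this way. In Stx7 ENSMUST00000020174 held most counts, with 3116, 2463 and 3875 against 3081, 2784 and 3881, beside MSTRG.3235.1 with 403 to 1254 and ENSMUST00000220041 with 258 to 1114 counts over the 6 libraries. In Vti1a ENSMUST00000095950 led with 1968, 2464 and 3314 against 2308, 2040 and 2868, ahead of ENSMUST00000223690 (157 to 824), the retained-intron isoform ENSMUST00000225392 (486 to 593) and MSTRG.20276.8 (123 to 565). Vamp8 was split between its 2 coding isoforms, ENSMUST00000059983 with 75, 79 and 201 against 153, 164 and 223, and ENSMUST00000142613 with 157, 102 and 120 against 51, 187 and 171. Of the 22 named isoforms of genes other than Stx12, 0 had shares apart between groups and 1, the Stx6 coding isoform, had CPM apart, where 7.87% of all tested isoforms had CPM apart. edgeR called 0.00433% of all 69333 tested isoforms, a set that also holds intronic and other rows outside the rule. Of these 22 it called 0, with 2 at an unadjusted p under 0.05 (3.58% of all tested isoforms), and DESeq2 called 0 of the 20 to which it gave an adjusted p and limma 0 of the 22. Among the isoforms of these genes, 32 reached 100 counts in a library. Of those, 7 (21.9%) were at 100 or more in 1 library and at 5 or fewer in another of the same group. Over all linear rows the share was 22.1%, but that set includes intronic and other rows outside the rule, so the 2 shares rest on unlike sets.

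The wider endosomal machinery showed no gene that passed with edgeR. Its lists were chosen with earlier results of these data known. In 7 lists of SNAREs, tethers, Rab GTPases, sorting complexes and related proteins, 115 of 117 genes were tested, 57 had a log2 difference above 0 and 58 below, and the median was -0.00, beside -0.01 over all genes. Of all tested genes 48.5% lay above 0, the share to set beside the count of each list below. No list was tested as a set. By edgeR 0 passed after adjustment, 4 had an unadjusted p under 0.05 (2.73% of all genes), DESeq2 called 1 and limma 0, and 13 had groups apart (6 higher and 7 lower in PS_high), where 3.34% and 3.75% of all genes stood apart higher and lower.

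Among 23 tested SNAREs outside the family, 7 lay above 0 and 16 below. Snap25, the SNARE of synaptic vesicle release at the plasma membrane, was the gene that DESeq2 called, with 597, 398 and 497 CPM in the control libraries and 1259, 1172 and 1673 CPM in PS_high. Its groups did not overlap, and its log2 difference of 1.46 (SE 0.21) had an adjusted p of 0.26 with edgeR. Because the list that holds Snap25 was chosen with earlier results known, its call is a description only. Gosr2, a Golgi SNARE, went the other way, with 88.7, 83.1 and 88.8 CPM against 47.9, 8.41 and 15.5 CPM, a log2 difference of -1.86 (SE 0.57, adjusted p = 0.9997, edgeR). Both genes had groups apart, and the 3 PS_high libraries of Gosr2 differed widely among themselves.

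The proteins that clasp or take apart SNARE complexes had 9 of 14 genes above 0. Vps33a, the Sec1/Munc18 protein of the HOPS and CORVET tethers that bind Stx7, had 145, 134 and 122 CPM against 163, 193 and 173, apart between groups, and a log2 difference of 0.40 (adjusted p = 0.9997, edgeR). Napg, the gamma form of the SNAP adaptor for NSF, overlapped, with control replicate 2 at 85.0 CPM and the other 5 libraries at 225 to 246.

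The tether list had 7 of 15 genes above 0 and 2 with groups apart. Tgfbrap1, a CORVET subunit, was lower in every PS_high library (log2 difference -0.46) and Vps53, a subunit of the GARP complex that tethers for Stx16, was higher in each (0.22). The Rab list had 7 of 16 above 0 and 3 with groups apart, all lower in PS_high, among them Rab4b (-0.36) and Rab4a (-0.25), which act in fast recycling from early endosomes. None of these 4 differences passed (adjusted p = 0.9997 each, edgeR).

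Retromer and sorting nexin genes lay above 0 in 11 of 16, with Vps26a, a retromer subunit, at 0.51 and Grip1, a scaffold of glutamate receptors, at -0.34, both with overlapping groups. The BLOC-1 and AP-3 list, which holds known partners of Stx12, had 9 of 16 above 0. Its subunit genes Bloc1s1 and Bloc1s3 were apart in opposite directions (1.52 and -0.41), Bloc1s1 at 0.146 to 2.18 CPM in the control libraries and 2.46 to 5.24 in PS_high. In the ESCRT list 7 of 15 lay above 0, and Chmp2a (0.28) and Hgs (0.30), both of the sorting machinery for lumenal vesicles, overlapped between groups.

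The genes most like Stx12 over the 6 libraries, by Pearson r of log2(CPM + 1), were Mrpl52 (0.978), Sprn (0.978), Gm25177 (0.977), Rpl5-ps1 (0.969) and Nrbf2 (0.969). These are the highest of all tested genes, all 5 were higher in every PS_high library, and the points share the libraries and the 2 groups that also set the Stx12 values apart. Of these, Sprn, which encodes the prion-like protein Shadoo, had 14.1, 13.9 and 14.7 CPM against 61.05, 77.03 and 77.79 CPM. Gm25177 and Mrpl52 were low, at 0.0364 to 0.400 CPM and 0.738 to 1.39 CPM over the 6 libraries. Among the family the same measure was 0.755 for Stx6, 0.703 for Vti1a, 0.613 for Vamp8, 0.512 for Stx8, 0.261 for Stx7, 0.217 for Vti1b, 0.142 for Stx16 and -0.037 for Vamp4, as a description over 6 libraries. In the same order, their ranks among the tested genes were 561, 826, 1421, 2291, 5225, 5876, 6986 and 10099.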

How the data were processed

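Prefrontal cortex RNA of 3 control and 3 PS_high libraries was analysed. Reads were handled with HISAT2, StringTie and TopHat, per the submitters' processing notes, which state no version. No source used here names the build. The deposited linear table gives FPKM per isoform and an estimated count per isoform, all whole numbers. The deposited circRNA table gives the count of back-splice reads and a signal, SRPBM, scaled per library by the authors. Rows with class codes =, j, c, o and e (rows sharing exons with the gene) were summed per symbol, which leaves out intronic rows (15.0% to 19.1% of counts).

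Genes or isoforms averaging 0.5 FPKM or more, and circRNAs with reads in at least 3 of 6 libraries, were tested over the whole table with edgeR 4.0.16 (quasi-likelihood, two-sided, TMM; back-splice totals for circRNAs; R 4.3.3), with Benjamini-Hochberg adjustment and a threshold of 0.05. The fit was also run on simulated gene counts, drawn with the spread that edgeR fitted to genes of like level. These lack the spread particular to each gene, and no result here rests on that run. Standard errors derive from the F statistic, and 95% intervals use its total degrees of freedom, which are the residual plus the prior ones estimated by edgeR. CPM uses the TMM library sizes. DESeq2 1.42.0, limma 3.58.1 on log2(FPKM + 0.1) and on log2(FPKM + 1), no filter, annotated isoforms only, a replicate block and leaving out each library were the alternatives. The genes and lists were chosen with earlier results of these data known. Named were all genes of the family, their isoforms with at least 0.5 FPKM and 10% of the gene's counts in a library, their tested circRNAs, the 2 genes of smallest p per list and the 5 genes most like Stx12. Promoters came from RefSeq (GRCm38.p6), where all 9 symbols matched, and 4 of 9 genes shared a start or end with that annotation. Genome sequence and protein sequences were not used here.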

Additional observations from a re-analysis of the deposited data

How the results depend on the processing

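The higher Stx12 counts kept their sign in 12 of 12 alternatives, with log2 differences from 1.22 to 1.84. Stx12 was chosen for this contrast and every PS_high library lay above every control library, so leaving out a library could not turn its sign. The differences of Stx6 (0.24 to 0.54), Vti1a, Stx8 and Vamp8 also kept their sign in 12 of 12 alternatives. Stx6 likewise had groups apart in CPM, so leaving out a library could not turn its sign either. All alternatives draw on the same 6 libraries, and the intervals of Vti1a, Stx8 and Vamp8 include 0. The near-zero differences changed sign. With limma on log2(FPKM + 0.1) and on log2(FPKM + 1), Vti1b was at -0.0505 and -0.0479 and Vamp4 at -0.0132 and -0.0127. Leaving out 1 library at a time gave ranges of -0.0229 to 0.0990 for Stx7, -0.28 to 0.20 for Stx16, -0.0181 to 0.0715 for Vti1b and -0.15 to 0.0802 for Vamp4. With the replicate number as a block, Vamp4 was at -0.00885 and the Stx16 isoform MSTRG.23571.2 at -0.11 (-0.14 with limma).

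Leaving out 1 library also turned the sign of some isoforms: the range was -0.0938 to 0.0141 for ENSMUST00000132158, -1.19 to 0.10 for ENSMUST00000135241, -0.67 to 0.35 for MSTRG.3235.1, -0.81 to 0.26 for ENSMUST00000021286, -0.0212 to 0.41 for ENSMUST00000055262, -0.10 to 1.67 for ENSMUST00000223690, -0.11 to 0.25 for ENSMUST00000095950, -1.56 to 1.20 for MSTRG.23571.2 and -0.0828 to 0.71 for ENSMUST00000142613.

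Counts of calls moved with the tool. Of 20272 genes edgeR called 5, DESeq2 47, edgeR without a filter 2, with annotated isoforms only 0, limma 0 with either pseudocount, and edgeR without 1 library 0 to 17. Of 69333 isoforms edgeR called 3, DESeq2 978, limma 22, edgeR without a filter 0 and without 1 library 0 to 1. Of 3275 circRNAs edgeR called 3, DESeq2 1, edgeR with TMM factors 1, with reads in at least 1 library 5, and without 1 library 2 to 3. Of the list genes edgeR called 0, and DESeq2 called 1. The replicate block called 0 genes, 0 isoforms, 4 circRNAs and 0 list genes. The labels do not say whether the numbers pair the samples. Same-numbered libraries correlated at 0.221, 0.118 and 0.0596 in their deviations from the group means, and unlike numbers at -0.149 to 0.0536. Each library thus correlated best with its own number, and whether the numbers mark a pairing was not settled here. The cause of these changes was not tested. Stx8 and Vamp8 rest on 181 to 634 counts a library and the tested circRNA on 14 to 21 back-splice reads.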
